A study of Sus scrofa with 14 samples.

Results

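The cytosolic ribosomal protein genes encode the proteins of the ribosome that translates messenger RNA in the cytoplasm. The 49 members were all genes whose symbol in the deposited gene lists had the form RPL or RPS with a number and an optional suffix, together with RPLP0, RPLP2 and RPSA, out of 30071 gene identifiers. Of these, 25 belong to the large and 24 to the small subunit, and kinases of the RPS6K family were left out. In all, 48 members had at least 500 UMIs (unique molecular identifiers, 1 per captured RNA molecule) over the glands, and the other one, RPL10L, had 1 UMI in 1 gland. A further 10 ribosomal protein genes, RPLP1, RPL8, RPL14, RPL15, RPL23A, RPL26, RPS2, RPS15A, RPS28 and a readthrough gene of RPL36A, take such a symbol only from the section files or the reference, and they were used only as an alternative.

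The UMIs came from mammary glands of untreated multiparous sows in their second breeding cycle. Nuclei of 10 glands were sequenced, from 2 sows at each of 5 stages, which were gestation day 90 (G90), lactation day 0 (L0), lactation day 20 (L20), and 2 and 7 days after the start of natural involution (PI2 and PI7). A Visium section, in which RNA is counted per tissue spot, came from 1 gland of G90 and 1 of PI2. Single cells of milk came from 1 collection at L0 and 1 at L20, and the labels give mammary gland as the tissue of these libraries too. Each stage rests on different sows, so replicate 1 of a stage and replicate 1 of another share only a number.

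A ribosome has a small subunit, which reads the messenger RNA, and a large subunit, which joins the amino acids. Their protein genes are active in every growing cell, and most of their transcripts begin with a stretch of C and T letters known as a terminal oligopyrimidine tract, through which mTOR and LARP1 set how strongly they are translated. The ribosomal RNA is made by RNA polymerase I in the nucleolus, where assembly factors join it to the proteins. In lactation, alveolar epithelial cells translate very large amounts of a few milk proteins such as caseins.

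The annotated start of the transcript was searched for such a tract. All 49 members matched the RefSeq annotation of Sscrofa11.1 by symbol, and 21 of them (42.9%) had a run of at least 8 C or T letters in the transcribed strand within 10 bases of the annotated start. Over all protein-coding genes on chromosomes the share was 13.3% (2611 of 19559). The windows of 30 bases below start 10 bases before the annotated first base, run in the direction of transcription, and have the run in capitals. The 5 shown are stalk, small subunit and X-linked members with a run, whose values are given further on. Where the annotated start is not the true first base, as in a gene model without its first exon, a run would be missed, so 21 is a count of annotated starts and the groups with and without a run below carry this limit. They lie at chr14:40223924-40223953 (minus strand, RPLP0), chr2:507881-507910 (plus, RPLP2), chr4:75762199-75762228 (plus, RPS20), chrX:58155160-58155189 (minus, RPS4X) and chrX:124927239-124927268 (plus, RPL10).
RPLP0: tacagCCCTCCTCTCgccaggcgtcctcgt
RPLP2: gcgccggcgTCTTCCTTTCTgtccctgacg
RPS20: tcacgCCTTCCTCTTTgaagaagacgcagc
RPS4X: gaCCTTCTTTTCTCCgcgcgccggaaggag
RPL10: gtgggagcgCCTCTTTTCCTTCggcgcggt

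The glands held 18962138 to 53165191 UMIs each, and 126833 nuclei with 300 genes or more and no more than 25% mitochondrial UMIs were kept. Member UMIs numbered 42224 to 330848 per gland. Over the 66 pairs of gland and milk libraries, shared barcodes made up 0.550% to 1.52% of the smaller library. Both L20 glands stood against their label in the caseins and whey proteins, which took 0.137% and 0.0143% of UMIs there, against 0.568% and 1.32% in the G90 glands and 1.63% and 1.42% at L0. In L20 replicate 2 only 9.06% of nuclei carried mostly epithelial markers, against 26.0% to 76.6% in the other 9 glands, so the main lactation results are also given without them. Mitochondrial UMIs, which nuclei should lack, ranged from 0.153% to 2.09% per gland.

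Ribosomal protein RNA took a smaller part of nuclear RNA in lactating glands than in most others. The members held 0.239% and 0.213% of UMIs in the L0 glands and 0.389% and 0.220% in the L20 glands. They held 0.852% and 0.551% at PI7, 0.376% and 0.396% at PI2, and 0.648% and 0.314% at G90. The mean was 0.265% ± 0.083 (SD, n = 4) over lactation and 0.523% ± 0.203 (SD, n = 6) over the other stages. The 2 sets overlapped, since L20 replicate 1 lay above G90 replicate 2 and PI2 replicate 1, while both L0 glands lay below all 6 others, and their mean alone was 0.226% ± 0.018 (SD, n = 2). A summed share was not tested, because it is a score over chosen members.

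**Figure D1:**
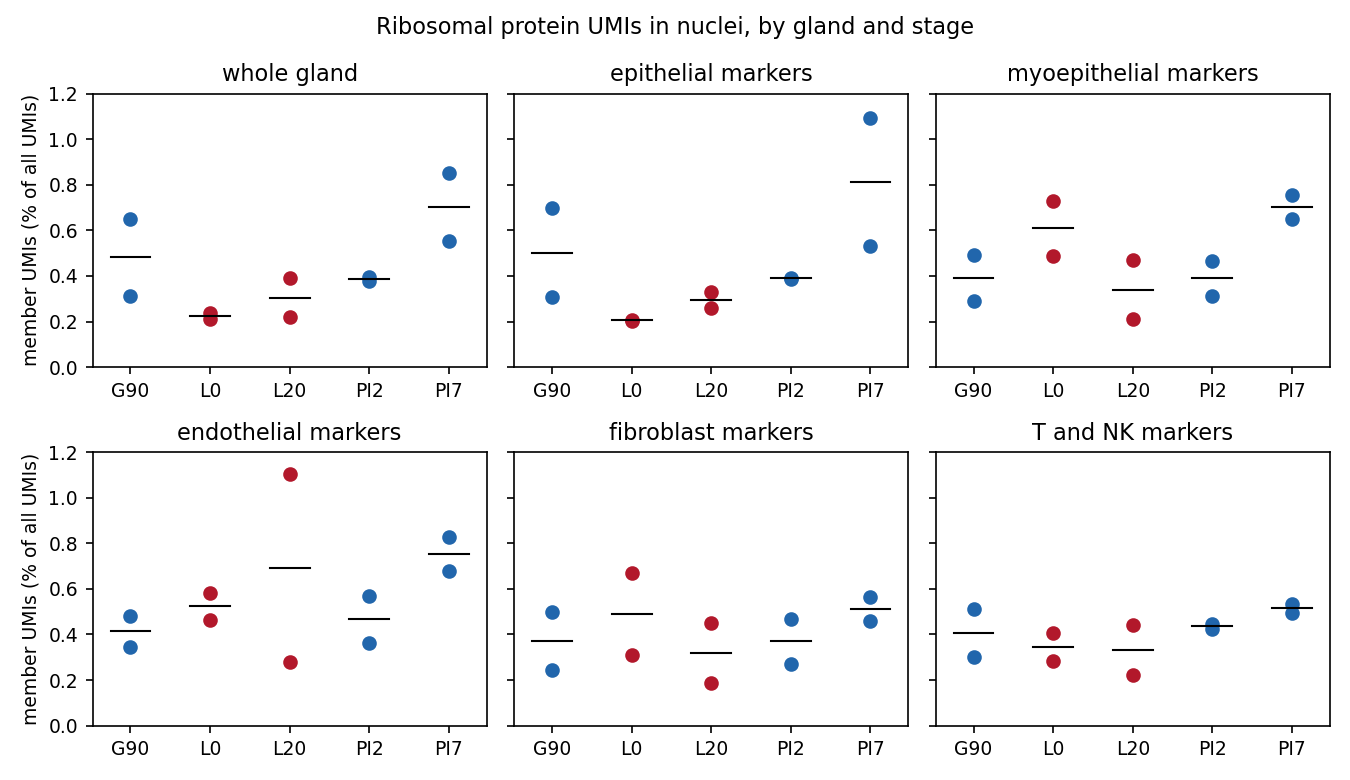
Share of all UMIs in the cytosolic ribosomal protein genes (%, y axis) for each gland (point) by stage (x axis), over all kept nuclei and for nuclei gated to 5 classes by their markers; red points are lactation (L0 and L20), blue points the other stages, and bars the mean of 2 sows. In epithelial nuclei all 4 lactation glands but L20 replicate 1 lie below every other gland, while in endothelial, fibroblast and myoepithelial nuclei L20 replicate 2 is lowest and the other lactation glands lie among or above the rest.

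The mean of lactation stayed the lower one in other sets of nuclei and genes. Among nuclei without any mitochondrial UMI the mean share was 0.195% ± 0.060 (SD, n = 4) in lactation, 0.166% ± 0.029 (SD, n = 2) at L0 alone, and 0.359% ± 0.054 (SD, n = 6) otherwise. The sets still overlapped, with 0.281% in L20 replicate 1 and 0.277% in G90 replicate 2. Such nuclei made up from 4.24% (G90 replicate 1) to 44.2% (PI2 replicate 1) of the nuclei of a gland. With the 10 further genes added the mean share was 0.321% ± 0.107 (n = 4) in lactation and 0.269% ± 0.020 (n = 2) at L0 alone, against 0.635% ± 0.259 (n = 6). In whole-gland sums, fewer cells of a type and less RNA per cell cannot be told apart.

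Gene by gene, the members leaned the same way but none passed the test. In edgeR's quasi-likelihood fit on the summed UMIs of the 10 glands, called genes needed an adjusted p under 0.05 (Benjamini-Hochberg over 22695 genes) and a log2 fold change past 1. Between lactation and the other stages 0 of 48 tested members were called, beside 0% of all genes in either direction, and DESeq2 called 0 members as well, with 0.0969% of all genes lower and 0.432% higher. Their log2 fold changes had a median of -0.71, against -0.03 over all genes, and 46 of 48 were negative. Without adjustment 14 members had a p under 0.05, as did 5.49% of all genes. Without both L20 glands the median was -0.66 and 0 members were called.

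The median log2 fold change was -0.65 for large subunit genes (24 members) and -0.72 for small subunit genes (24 members), a difference that was not tested. Members with a pyrimidine run had a median of -0.71 and those without one -0.71. The lowest p values belonged to RPS23, which lies at the decoding centre, RPS6, the classic target of S6 kinase, and RPS4X, encoded on the X chromosome. Their log2 fold changes were -0.92 ± 0.33, -0.90 ± 0.33 and -1.08 ± 0.40 (SE, 4 against 6 glands), with adjusted p of 0.791, 0.806 and 0.809.

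For 6 of 48 members all 4 lactation glands lay below all 6 others, against 0.683% of all genes. These were RPL5, RPS6, RPS9, RPS13, RPS23 and RPS24, so 1 was of the large and 5 of the small subunit. With the L0 glands alone against those 6 it was 40 of 48, against 16.4%. RPL5, which binds the smallest ribosomal RNA and can restrain MDM2, had 97.9 and 76.7 CPM (counts per 1000000 UMIs) at L20, 107 and 78.4 at L0, 187 and 127 at G90, 134 and 180 at PI2, and 285 and 193 at PI7. RPS6 had 55.2 and 42.5 CPM at L20, 41.5 and 49.0 at L0, 167 and 71.2 at G90, 60.1 and 69.7 at PI2, and 176 and 99.9 at PI7. RPS24, a gene mutated in Diamond-Blackfan anaemia, had 226 and 165 CPM at L20, 174 and 157 at L0, and 251 to 390 in the other 6 glands. In each the gap was narrow beside the spread between sows, since the lowest gland outside lactation was close to the highest within it. RPS13 was also near the floor, with 2.21 CPM (62 UMIs) in L0 replicate 1 and 2.30 CPM (43 UMIs) in PI2 replicate 2.

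The spread between sows of a stage was wide. PI7 replicate 1 had the highest CPM of all glands for 39 of 48 members, and the lowest gland was L0 replicate 2 for 20 members, L20 replicate 2 for 17 and L0 replicate 1 for 7. RPS4X had 177 and 47.9 CPM in the 2 G90 glands and 254 and 93.9 in those of PI7, against 30.6 and 27.3 at L0. RPLP0, which anchors the stalk of the large subunit, had 99.3 and 69.0 CPM at L20, 50.4 and 44.2 at L0, 215 and 54.4 at G90, 347 and 163 at PI7, and 110 and 94.6 at PI2. For both genes the 2 sows of G90 differed by more than the means of most pairs of stages did.

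Part of that spread lay in a few nuclei. In PI7 replicate 1, 6.53% of nuclei had at least 2% member UMIs, and they held 26.6% of its member UMIs. The same held for 3.53% of nuclei in G90 replicate 1, 2.74% in PI7 replicate 2 and 0.264% to 1.24% in the other 7 glands. These nuclei had 2.24% mitochondrial UMIs in PI7 replicate 1, against 1.11% in the rest, and their part in the result was not tested. Without them the members still held 0.681% of UMIs in that gland, the highest of the 10. Among nuclei without a mitochondrial UMI they held 0.373% in PI7 replicate 1, below PI7 replicate 2 (0.421%) and G90 replicate 1 (0.407%). Such nuclei were 12.3%, 22.5% and 4.24% of the nuclei of these glands.

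**Figure D2:**
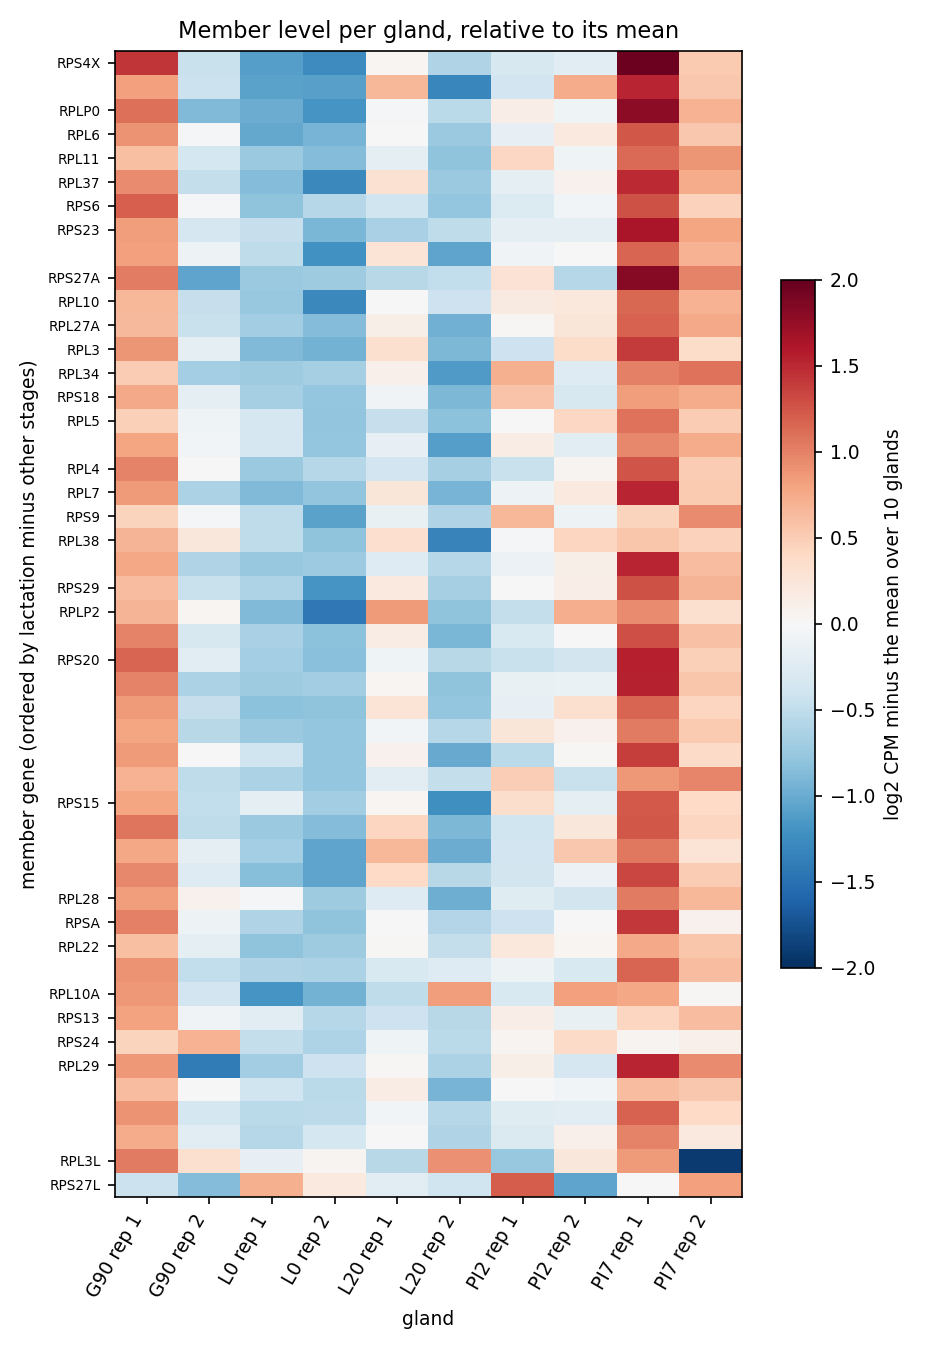
Log2 CPM of each of 48 members (rows, ordered by the change in lactation) in each gland (columns), minus the mean of that member over the 10 glands; blue is below and red above the mean, and the members described in the text are labelled. PI7 replicate 1 is highest for 39 members, and RPS27L and RPL3L at the bottom do not share the pattern of the rest.

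Nuclei were gated to the class with the most distinct markers detected, at least 2 and without a tie, and no member is a marker. The myoepithelial markers used were TP63, KRT5, KRT14, OXTR, ACTA2, MYH11 and MYLK, and the mural ones RGS5, PDGFRB, NOTCH3, CSPG4, KCNJ8 and ABCC9. The sums compared held 3874 myoepithelial and 200 mural nuclei, and whether mural nuclei were gated as myoepithelial was not tested. In the epithelial nuclei the members held 0.331% and 0.258% of UMIs at L20, 0.208% and 0.201% at L0, 0.696% and 0.306% at G90, 0.393% and 0.386% at PI2, and 1.09% and 0.531% at PI7. Both L0 glands lay below the other 8, while of the L20 glands replicate 1 lay above G90 replicate 2 and replicate 2 below it.

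In the same test on epithelial sums, 0 of 48 members were called between lactation and the rest, beside 0% of 19529 genes called lower and 0.0102% called higher. The median log2 fold change was -0.89, against -0.04 over all genes, with 46 of 48 negative, and 38 members had an unadjusted p under 0.05, as did 9.92% of all genes. DESeq2 called 1 member lower, RPL11, beside 0.527% of all genes. Without both L20 glands 0 were called and the median was -0.98. RPL11, the partner of RPL5 on the same ribosomal RNA, had the lowest p in edgeR, with a log2 fold change of -1.05 ± 0.28 (SE, n = 4 against 6) and an adjusted p of 0.279. Its CPM in epithelial nuclei was 72.5 and 60.3 at L20, 48.2 and 46.1 at L0, 150 and 72.6 at G90, 248 and 169 at PI7, and 131 and 87.9 at PI2. The highest lactation gland was thus level with the lower G90 gland. RPS23 had -1.14 ± 0.32 with an adjusted p of 0.317, and RPL10, near the catalytic centre of the large subunit, -1.02 ± 0.30 with 0.324. RPLP0 and RPS6 followed with log2 fold changes of -1.23 and -1.08, and RPLP2, RPL3 and RPSA had -0.87, -0.97 and -0.78.

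In epithelial nuclei, 10 of 48 members had all 4 lactation glands below all 6 others, against 1.14% of all genes. RPL5, RPS6, RPS9, RPS13 and RPS24 were among these and among the 6 found over the whole gland, and RPL4, RPL6, RPL11 and RPL38 were among those added. RPS13 was near the floor here too, with 1.82 CPM in L0 replicate 1 and 2.29 CPM in G90 replicate 2. With both L0 glands set against the other 8, which include L20, 30 of 48 members had the L0 glands lowest, against 13.4% of all genes. Against the 6 glands outside lactation alone it was 42 of 48, against 18.1%.

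Between neighbouring stages 0 members were called in any of the 4 steps, over the whole gland or in epithelial nuclei, by edgeR or by DESeq2. Of all genes 0.00512% were called higher from G90 to L0 in epithelial nuclei by edgeR, and 0% in the other steps and directions. DESeq2 called 0.0132% to 2.40% of all genes lower in a step and 0% to 2.75% higher. From G90 to L0 the median log2 fold change was -0.60 over the whole gland, where 1 member had an unadjusted p under 0.05, and -0.83 in epithelial nuclei, where 6 had. From L0 to L20 the medians were -0.03 and 0.14, with 0 members at that level in either. From L20 to PI2 they were 0.47 and 0.43, with 1 and 0 members. From PI2 to PI7 they were 0.50 and 0.79, with 0 and 5 members. Of all genes 7.28% and 11.05% reached that level from G90 to L0, 12.8% and 12.9% from L0 to L20, 3.60% and 3.36% from L20 to PI2, and 2.04% and 2.76% from PI2 to PI7. These steps share glands, so a low stage enters the step before it and the step after it.

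**Figure D3:**
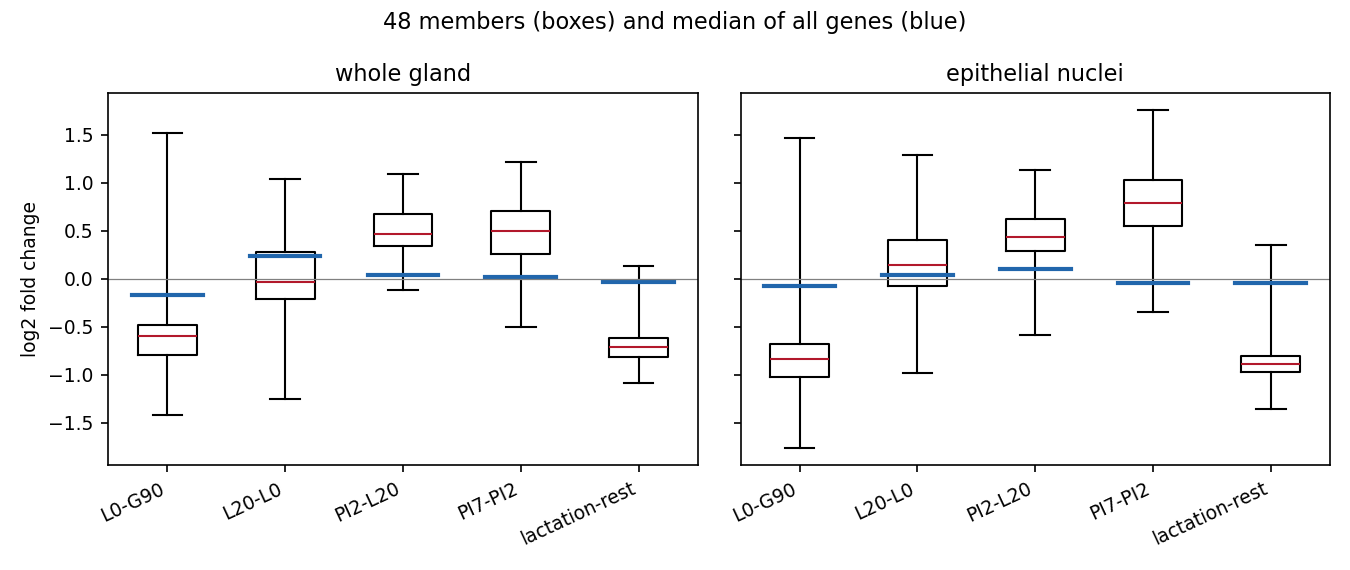
Log2 fold changes of 48 members (y axis) in 4 steps between neighbouring stages and in lactation against the rest (x axis), as box (quartiles), red line (median) and whiskers (full range), with the median of all tested genes as a blue bar. The box lies below the blue bar from G90 to L0 and in lactation, and above it in both steps after L20.

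The members with the lowest p differed from step to step. From G90 to L0 the log2 fold change of RPS4X was -1.42 ± 0.61 over the whole gland (SE, adjusted p = 0.651 in edgeR) and -1.76 ± 0.65 in epithelial nuclei (adjusted p = 0.337). RPL6 had -1.02 and -1.27 in the 2 fits. From L20 to PI2 RPL5 had 1.09 ± 0.48 over the whole gland (adjusted p = 0.825) and 0.80 ± 0.41 in epithelial nuclei (adjusted p = 0.931), and RPL11 and RPS9 had 0.85 and 0.90 over the whole gland. From PI2 to PI7 RPS23 and RPS20 had 1.04 and 1.08, and RPS27A, which is made as a fusion with ubiquitin, had 1.15. All of these missed the threshold.

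From L0 to L20, RPLP2, a stalk protein, had a log2 fold change of 1.04 ± 0.70 over the whole gland and 0.93 ± 0.64 in epithelial nuclei. Its CPM was 31.5 and 21.6 at L0 but 105 and 33.2 at L20, so the difference came from L20 replicate 1. Without that gland the fitted log2 fold change was -0.40 over the whole gland and -0.28 in epithelial nuclei. These fits are scaled by TMM, and on the plain CPM scale L20 replicate 2 still lay just above both L0 glands.

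The members that did not follow the family were mostly paralogues of a core member. RPS27L, a relative of RPS27 that p53 is known to induce, had 31.8 and 28.0 CPM at L20, 60.4 and 42.5 at L0, 27.3 and 20.3 at G90, 85.7 and 17.8 at PI2, and 37.3 and 65.5 at PI7. Its 2 PI2 glands were the highest and the lowest of all 10. From G90 to L0 it had a log2 fold change of 1.52 ± 0.71 (SE, adjusted p = 0.702 in edgeR) and was the single member with a positive value, over the whole gland and in epithelial nuclei. From L0 to L20 it had -1.25 ± 0.70 (adjusted p = 0.482).

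RPL3L, known as the paralogue of RPL3 in striated muscle, stayed between 0.667 and 5.16 CPM in the glands, while RPL3 ranged from 41.2 to 209. In lactation against the rest RPL3L had a log2 fold change of 0.11 ± 0.52 and RPL3 one of -0.76 ± 0.40 over the whole gland. RPL10L, an intronless relative of RPL10 known from testis, had 1 UMI, whereas RPL10 ranged from 34.7 to 188 CPM. As a share of all member UMIs, RPL3L, RPL10L and RPS27L varied most over the glands, with SDs of 1.12, 1.06 and 1.01 on the log2 scale. The value of RPL10L comes from that 1 UMI and from a constant added to each count before the log. It thus moves with the member UMIs of each gland and is not read as variation of the gene. RPS4Y, RPL39 and RPS27 carry no symbol in the gene lists and were not analysed here.

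Against epithelial nuclei the members were called in 3 of 9 other cell classes of the gland, and these calls depended on the scaling and on single glands. Sums of at least 20 nuclei per class and gland were compared with epithelial nuclei in 1 edgeR fit with the gland as a block, over 13890 genes, of which 45 were members. In B and plasma nuclei (441 nuclei of 7 glands) 12 of 45 members were called lower, beside 22.6% of all genes called lower. In adipocyte nuclei (508 of 3 glands) it was 11 of 45, beside 12.2%, and in mural nuclei (200 of 4 glands) 5 of 45, beside 17%. These are few nuclei beside the 64888 epithelial ones. In the other 6 classes 0 members were called lower, beside 18.8% of all genes in T and NK nuclei, 17.1% in macrophages, 12.5% in endothelial, 11.2% in fibroblast, 8.73% in dividing and 7.77% in myoepithelial nuclei. No member was called higher in any class, while 7.21% (adipocyte), 7.41% (mural), 7.82% (dividing), 11% (myoepithelial), 12% (macrophage), 12.3% (B and plasma), 12.8% (endothelial), 13.3% (fibroblast) and 13.6% (T and NK) of all genes were. With DESeq2 B and plasma nuclei had 1 member called lower, beside 4.99% of all genes, mural nuclei 0, beside 3.76%, and adipocyte nuclei 0, beside 7.46%, and 1 called higher, beside 11.04%. Without both L20 glands 6 of 46 members were called lower in B and plasma nuclei, beside 11.9% of all genes, 0 in mural nuclei, beside 7.97%, and 3 in adipocyte nuclei, beside 6.17%. Without L20 replicate 2 alone it was 2 of 47 in adipocyte nuclei, beside 7.65%, and without PI7 replicate 1 it was 1 of 47, beside 9.82%.

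In B and plasma nuclei the largest called difference was that of RPS27L, with a log2 fold change of -1.85 ± 0.44 (SE, adjusted p = 0.000421), ahead of RPS15 with -1.38 and RPS18 with -1.38. In adipocyte nuclei RPS27A and RPL37 had -1.40 and -1.39. In mural nuclei RPLP2, RPL7 and RPL27A had -1.38, -1.34 and -1.25. The median over the members was -0.78 in B and plasma nuclei (-0.49 over all genes), -0.82 in adipocyte nuclei (-0.29) and -0.56 in mural nuclei (-0.56). With DESeq2 these medians were -0.03 (0.26 over all genes), -0.47 (0.09) and 0.07 (0.27), and this scaling moved all genes upward too. Relative to all genes the members lay lower in B and plasma and adipocyte nuclei in both fits, and in mural nuclei in the DESeq2 fit alone.

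T and NK nuclei, macrophages, fibroblasts, myoepithelial and dividing nuclei had member medians of -0.44, -0.33, -0.23, -0.06 and -0.06, with 16, 12, 4, 1 and 0 members at an adjusted p under 0.05 whatever the fold. The shares of all genes at that level were 52.0%, 49.5%, 48.8%, 39.2% and 30.1%, each above that of the members. RPS27L was among the 3 members with the lowest p in macrophages, fibroblasts, myoepithelial and dividing nuclei, with log2 fold changes from -0.74 to -0.50. Endothelial nuclei leaned the other way, with 40 of 45 members positive, a median of 0.24 against -0.15 over all genes, and 8 members at an adjusted p under 0.05, beside 49.3% of all genes. Among them RPL37 had 0.72 ± 0.20 (adjusted p = 0.00223) and RPS29 0.71 ± 0.18 (adjusted p = 0.000883). With DESeq2 2 members were called higher there, beside 17.7% of all genes.

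At L0 epithelial nuclei had a lower share than the stromal and myoepithelial nuclei of the same gland. In L0 replicate 1 the members held 0.208% of UMIs in epithelial nuclei but 0.581% in endothelial, 0.671% in fibroblast and 0.730% in myoepithelial nuclei. In L0 replicate 2 the shares were 0.201%, 0.465%, 0.309% and 0.488%. Endothelial nuclei lay above epithelial nuclei in 4 of 4 lactation glands, by a ratio of 1.08 to 3.34, and in 3 of 6 others, where the ratio ran from 0.693 to 1.47 over all 6. Fibroblasts lay above in 3 of 4 and 1 of 6, and myoepithelial nuclei in 3 of 4 and 2 of 6.

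Mitochondrial UMIs and milk protein UMIs also differed between these classes. Endothelial nuclei had 4.41% and 3.96% mitochondrial UMIs at L0 and epithelial nuclei 0.407% and 0.607%, and endothelial nuclei had the higher share in 4 of 4 lactation glands and in 5 of 6 others. Fibroblasts had the higher mitochondrial share in 4 of 4 and 3 of 6, but myoepithelial nuclei in 2 of 4 and 1 of 6. The caseins and whey proteins held 1.67% and 1.45% of epithelial UMIs at L0 but 0.710% and 0.496% of endothelial UMIs. The part of mitochondrial UMIs and of free RNA in the result was not tested. The L0 fibroblasts numbered 257 and 46 nuclei, against 8694 and 7198 epithelial nuclei.

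The difference was tested as an interaction of class and lactation, with 1 epithelial sum and 1 sum of the endothelial, fibroblast and myoepithelial nuclei per gland and the gland as a block, a comparison added after the data had been seen. With all 10 glands 0 of 48 members were called, beside 0% of 19972 genes in either direction, and DESeq2 called 0 members. The median was -0.87 against 0.01 over all genes, and 41 members had an unadjusted p under 0.05, as did 7.02% of all genes. RPL10A and RPS27L were the 2 positive members. RPL11, RPS29 and RPS20 had the lowest p, with log2 values of -1.07 ± 0.31, -1.03 ± 0.30 and -1.19 ± 0.35 (SE, n = 4 against 6 glands), each with an adjusted p of 0.615 in edgeR.

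Without both L20 glands, 9 of 48 members were called lower in epithelial nuclei, beside 0.556% of all genes, with a median of -1.36 against 0.16. Leaving out any single gland gave 0, L20 replicates included. The called members came from both subunits. RPL11 had -1.74 ± 0.27 (SE, adjusted p = 0.0112 in edgeR) and RPLP0 -1.92 ± 0.35 (adjusted p = 0.0256). RPLP0 had 40.3 and 40.8 CPM in epithelial and 187 and 143 in endothelial nuclei at L0. At G90 it had 237 and 53.0 CPM in epithelial and 142 and 79.0 in endothelial nuclei, so the 2 sows of G90 went opposite ways. The result rests on 2 lactating sows.

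Whole tissue held a far larger share of ribosomal protein RNA than nuclei did. The members took 16.2% of UMIs in the G90 section and 17.6% in the PI2 section, against 0.314% to 0.648% in the G90 nuclei and 0.376% to 0.396% at PI2. Without casein and whey UMIs, which took 12.4% and 4.56% of the sections, the shares were 18.6% and 18.4%, so the order of the 2 sections turned. Each section was 1 library, and the section and nuclei differ in assay as well as in the cytoplasm they hold. The log2 ratio of section CPM to the mean CPM of nuclei at G90 had a median of 4.94 over 48 members and ranged from -3.48 to 8.21.

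The ratio differed between members more than between stages. RPS13, RPL28 and RPS23 had the highest, 8.21, 6.88 and 6.63 at G90 and 9.25, 8.08 and 7.57 at PI2. RPL3L, RPS24 and RPS4X had the lowest, -3.48, 2.48 and 3.61 at G90. RPL3L was lower in the section (0.374 CPM) than in the nuclei, alone among the members. RPS13 had 2.43 to 4.47 CPM in the G90 nuclei but 1021 in the section, and a near-identical copy of it lies elsewhere in the genome. Of the 48 members, 18 had at least 1 other locus of 95% identity or more over their last 300 bases (5 for RPS23). Their counts can depend on how such reads were assigned, which was not tested.

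Short genes had the higher ratios. The 19 members with a span of up to 3000 bases had a median of 5.78, the 11 with over 3000 and up to 5000 bases 5.05, and the 18 longer ones 4.16. Over 48 members Spearman's rho of the ratio with the span was -0.62 at G90 and -0.66 at PI2, as a description across genes that share the same libraries, and for milk cells against nuclei it was -0.59 at L0 and -0.60 at L20. With the length of the spliced transcript it was -0.34 at G90. RPS13, RPL28 and RPS23 span 2798, 2752 and 1644 bases, and RPL3L spans 11796. RPS13 and RPS23 are also among the 18 members with other loci. These had a median ratio of 5.36 at G90 and the 30 without other loci 4.78, which was not tested. Members with a pyrimidine run had a median ratio of 4.97 and those without one 4.92 in the G90 section. The medians were 5.88 and 5.15 in the PI2 section, 4.40 and 3.61 in L0 milk, and 4.10 and 3.64 in L20 milk, and these differences were not tested.

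**Figure D4:**
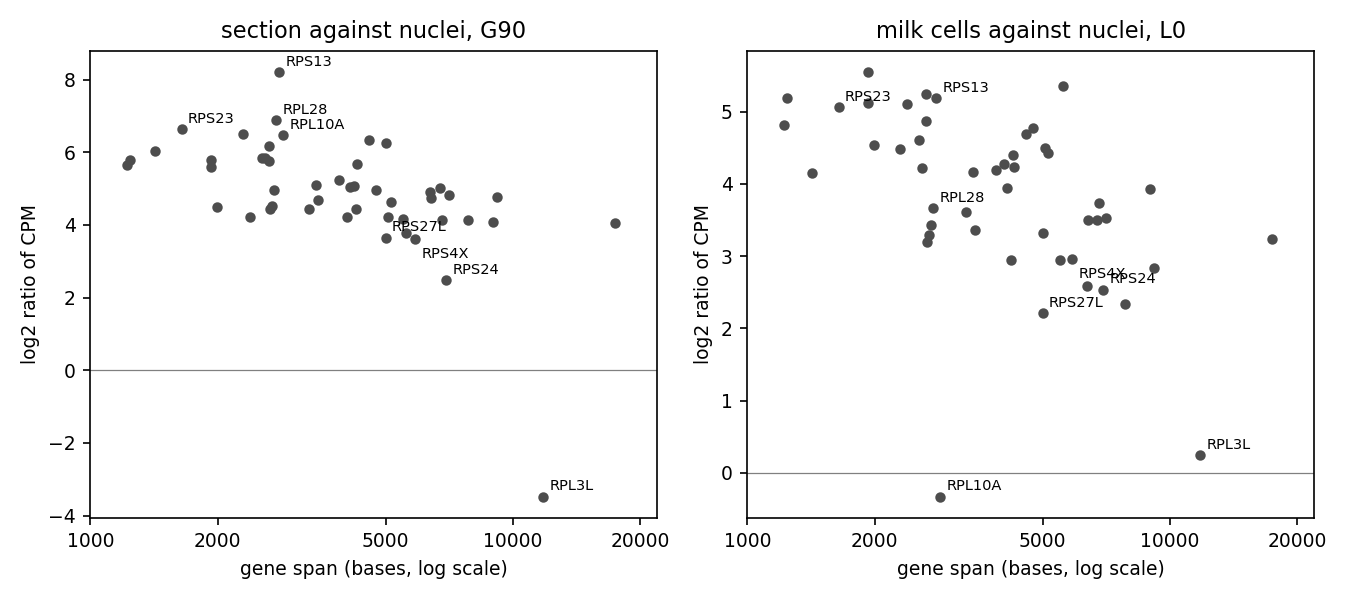
Log2 ratio of CPM in the G90 section (left) and in L0 milk cells (right) to the mean of the 2 glands' nuclei of that stage (y axes) against the span of the gene in bases (x axes, log scale), 1 point per member (48). Longer members have lower ratios, RPL3L is below 0 in the section, and RPL10A is below 0 in L0 milk.

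RPL10A and RPL3L were low in milk. RPL3L had 2.88 CPM in L0 milk and 0.419 in that of L20, log2 ratios of 0.24 and -2.96 to the nuclei of the stage. RPL10A had 167 CPM in the G90 section and 294 in that of PI2, but 0.556 and 1.42 CPM in the milk cells of L0 and L20 and 0.642 to 2.66 CPM in the glands. Its log2 ratio to nuclei was thus 6.47 in the G90 section and -0.33 in L0 milk, while other short members were high in both, RPS13 with 8.21 and 5.19 among them. The 2 assays were counted by different programs, and their part in this was not tested.

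Between the sections, 0 of 47 members were over 2-fold higher at PI2 than at G90, beside 12.4% of 12465 genes, and 1 was lower, beside 16.2%. The lower one was RPS27L, with 300 CPM at G90 and 138 at PI2, a log2 ratio of -1.12 (95% interval -1.18 to -1.06, counting error only). The median over the members was 0.09 and over all genes -0.12. RPL38 and RPS18 had the highest log2 ratios, 0.92 and 0.90. These differences have no replicate check.

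Within a section the share ranged from 13.9% to 18.8% over the groups of spots richest in a marker list. At G90 the 10% of spots richest in caseins and whey proteins held 17.1% member UMIs and the other spots 16.2%, and at PI2 18.8% and 17.4%. With casein and whey UMIs left out, the shares were 21.8% and 18.2% at G90 and 20.7% and 18.2% at PI2. Spots richest in epithelial markers held 15.6% against 16.3% at G90 and 14.9% against 17.9% at PI2, and those richest in myoepithelial markers 15.5% against 16.3% and 13.9% against 17.9%. Spots richest in adipocyte markers held 18.0% against 16.2% at G90 and 18.0% against 17.5% at PI2, at G90 with a median of 1913 UMIs per spot against 8885. A spot can hold several cells, and its depth moved with some of these groups.

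In milk the cell classes differed far more than the stages, and lymphocytes had the highest share. The members held 3.74% of UMIs in the L0 library (17571 cells) and 4.49% in that of L20 (14514 cells). Casein and whey UMIs took 25.3% and 9.14% of these libraries, and without them the members held 5.01% and 4.95%, so the order of the 2 libraries turned. In cells with mostly T and NK markers they held 13.6% (303 cells) at L0 and 14.2% (1007 cells) at L20. In cells with mostly neutrophil markers they held 1.13% (9313 cells) and 1.11% (5142 cells). Macrophages had 4.40% and 5.01%, and epithelial cells 4.26% and 5.03%.

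**Figure D5:**
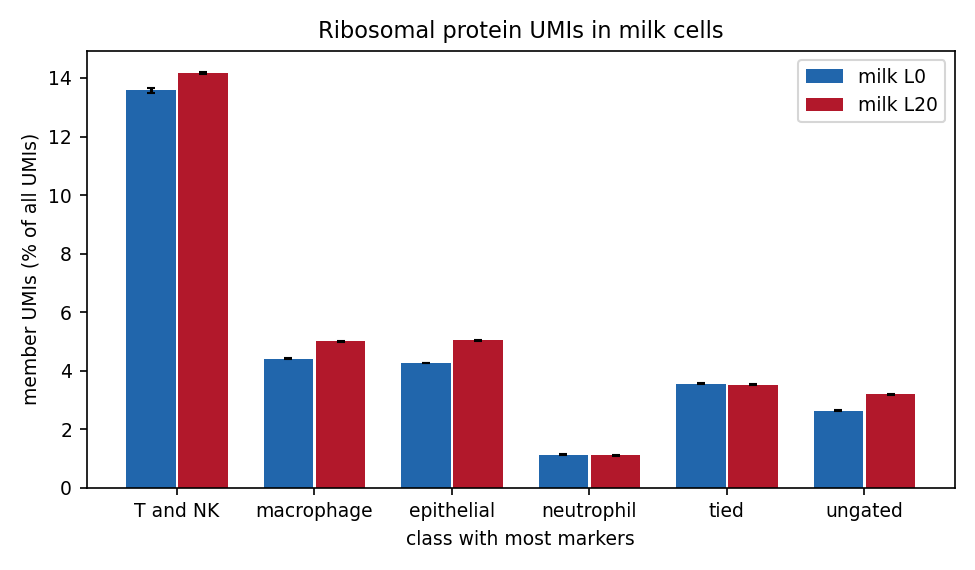
Share of all UMIs in the cytosolic ribosomal protein genes (%, y axis) by the class whose markers lead (x axis), for milk of L0 (blue) and L20 (red); whiskers are exact 95% binomial intervals, which cover counting error only. T and NK cells hold 13.6% and 14.2%, neutrophils 1.13% and 1.11%, and macrophages and epithelial cells lie between them in both libraries.

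T and NK cells and neutrophils differed in every member compared. In each library all 47 members with enough UMIs were over 2-fold higher in T and NK cells than in neutrophils. RPL10A had too few UMIs at L0 and RPL3L too few at L20, so the 47 were not the same genes. The median log2 ratio was 3.66 at L0 and 3.75 at L20. Of all genes 42.2% and 49% were over 2-fold higher, with medians of 0.69 and 0.95. RPL22, a large subunit protein, had 1562 and 1666 CPM in T and NK cells against 49.0 and 78.4 in neutrophils. RPL34 had 6256 and 5773 CPM against 246 and 284. Against macrophages, 45 and 41 of 47 members were over 2-fold higher in T and NK cells, with medians of 1.47 and 1.39, beside 20.4% and 17.1% of all genes with medians of 0.09 and 0.06. At L0 the other 2 members were lower there, RPS27L and RPL3L, which had 3 UMIs in T and NK cells. At L20, where RPL3L was not compared, all 47 were higher. RPS27L had 150 and 254 CPM in T and NK cells, 242 and 243 in macrophages and 296 and 259 in epithelial cells. Each class in each library is 1 sample, so these ratios have no test.

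Among epithelial milk cells the depth and the share did not move alike. The median cell had 4.17% member UMIs at L0 and 11.97% at L20, while the median depth was 17399 and 2926.5 UMIs. With casein and whey UMIs left out, the summed share was 6.62% and 8.28%. The part of depth in this difference was not tested.

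The libraries also differed in makeup, with epithelial cells giving 68.4% of UMIs at L0 and 21.8% at L20. With the L20 share of each class and the UMI makeup of L0 the total was 4.33%, and with the L0 shares and the makeup of L20 it was 4.01%, between the observed 3.74% and 4.49%. Between milk of L20 and L0 1 of 48 members was over 2-fold higher, beside 14.4% of 14716 genes, and 1 was lower, beside 21.3%. The higher one was RPL10A (log2 ratio 1.35, 95% interval 0.77 to 1.94, 61 against 45 UMIs) and the lower one RPL3L (-2.78, 95% interval -3.56 to -2.09, 18 against 233 UMIs). In all, 41 of 48 members were positive, with a median of 0.30 against -0.03 over all genes.

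No other listed gene of ribosome production was called in lactation, over the whole gland or in epithelial nuclei. Of all genes edgeR called none over the whole gland, and 0% lower and 0.0102% higher in epithelial nuclei. The absence of calls is thus not read as a result about these lists. Of 20 assembly factors, among them NCL and NPM1 of the nucleolus, 0 were positive and 0 called, with a median log2 fold change of -0.59 over the whole gland and -0.72 in epithelial nuclei. The medians were -0.25 and -0.29 for 15 genes of RNA polymerase I, -0.52 and -0.61 for 14 of 19 listed genes known for a pyrimidine start, mostly translation factors but also VIM and HNRNPA1, and -0.15 and -0.17 for the mitochondrial ribosome (64 of 68 tested). For the 14 genes that control ribosomal protein translation, such as MTOR and LARP1, they were -0.19 and -0.17, and for 4 near relatives of members -0.34 and -0.49. All genes together had medians of -0.03 and -0.04.

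From PI2 to PI7 edgeR called no gene at all, members and assembly factors included, and the difference between the groups was not tested. Over the whole gland 42 of 48 members had a positive log2 fold change with a median of 0.50, while 1 of 20 assembly factors did, with a median of -0.63. In epithelial nuclei the medians were 0.79 and -0.33. Summed over the whole gland, the assembly factors took 0.0897% and 0.183% of UMIs at PI2 and 0.124% and 0.101% at PI7. PI2 replicate 2 was the highest of all glands, while PI2 replicate 1 lay below both PI7 glands, so the fall came from 1 sow. In the interaction with class 0 genes of these other lists were called, beside 0% of all genes with all glands.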

How the data were processed

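Nuclei of 10 glands, 2 milk libraries and 2 Visium sections were used. The authors deposited raw UMI counts per gene and barcode, made with CeleScope for nuclei and milk and Space Ranger for sections on Sscrofa11.1. The submitters' notes name Space Ranger 1.2.0 and Seurat 4.3.0. The sources used here do not give the annotation release.

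UMIs were summed per gland, or per gland and marker class of at least 20 nuclei, and tested with edgeR 4.0.16 (TMM, its filter on low counts, quasi-likelihood, R 4.3.3) in 1 fit over the 5 stages. CPM is per 1000000 UMIs of kept barcodes. The step from G90 to L0 and the comparison of T and NK with epithelial nuclei were also run on simulated counts of independent genes. The contrast of lactation with the rest and the interaction were not. KRT17, MKI67, CXCR2 and S100A9 of the marker lists are not named in the gene lists used here. No doublets or free RNA were removed. Other loci were found with blastn 2.17.0+.

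Sections and milk libraries are single samples, so exact 95% intervals from scipy 1.17.1 cover counting error only. Replicates are sows, and with 2 per stage the spread between them limits every test.

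The members and lists were chosen with earlier results of these data known. Named genes are paralogue pairs, stalk proteins, RPSA and RPS6, and per comparison the 3 called members with the largest fold change, or the 3 with the lowest p where fewer than 3 were called. Named too are the 3 highest and 3 lowest in sections against nuclei and the 3 whose share of the family varied most. RPL5, RPS24, RPLP0, RPL10A, RPL22, RPL34, RPL38 and RPS18 were in places named after their values were seen. Some members that the rule names are not reported here. Alternatives were DESeq2 1.42.0, other scalings, filters and gates, a replicate block, and each gland left out.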

Additional observations from a re-analysis of the deposited data

Results flagged for a closer look

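One gland stood far from the other 3 of lactation in several members. In L20 replicate 1 the summed share was 0.389% of UMIs, against 0.213% to 0.239% in the others. RPL3 had 98.6 CPM there (41.2 to 43.0 in the others), RPLP2 had 105 CPM (21.6 to 33.2) and RPL11 had 81.5 CPM (50.8 to 55.2). Of 48 groups examined in this way 4 held such a sample, and chance flags about 1 in 20 groups. The same gland had 2.09% mitochondrial UMIs, the highest of the 10.

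Whether the change in lactation differed between epithelial nuclei and the summed endothelial, fibroblast and myoepithelial nuclei of the same glands depended on the L20 glands. By the interaction term 0 of 48 members were called with all glands, beside 0% of all genes. Without both glands of L20, 9 of 48 were called lower, beside the share of all genes given above. This comparison was added after the data had been seen, leaving out any single gland gave 0, and the 9 calls rest on 2 lactating sows.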

How the results depend on the processing

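The 0 calls between stages held under every alternative run, over the whole gland and in epithelial nuclei, except that DESeq2 called 1 member in lactation in epithelial nuclei. Among the fold changes of single members named in a comparison 2 reversed, both of RPLP2 from L0 to L20 without L20 replicate 1 (-0.40 over the whole gland and -0.28 in epithelial nuclei), which without other glands ran up to 1.77 and 1.58. The replicate numbers did not pair the samples, since over 10 pairs of stages the deviations correlated from -0.50 to 0.36, and the fit with the number as a replicate block called 0 members between stages (median log2 fold change -0.75 in lactation over the whole gland).

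The calls between cell classes moved with many settings, and the cause was not tested. The counts below hold members called in either direction, and the 1 adipocyte call of DESeq2 was a higher one. A count without a share of all genes beside it is not read as a result about the members. In the order B and plasma, adipocyte and mural nuclei, DESeq2 and the RLE size factors in edgeR each gave 1, 1 and 0, no filter on low counts 31, 20 and 19 of 49 (beside 19.2%, 9.12% and 15.2% of all genes called lower), no replicate block (no gland term) 7, 5 and 0 (beside 22.9%, 8.30% and 14.9%), and leaving out both L20 glands 6, 3 and 0 (beside 11.9%, 6.17% and 7.97%). At least 50 nuclei per sum gave 7 in B and plasma nuclei (beside 11.5% of all genes), the stricter filter on nuclei 6 there (12.9%) and 3 in mural nuclei (14.3%), and 3 distinct markers 3 in adipocyte, 0 in mural and 1 in endothelial nuclei. Shares of all genes with 3 distinct markers are not reported here. No limit on the fold change gave 25 (B and plasma), 16 (T and NK), 12 (macrophage), 8 (endothelial), 4 (fibroblast) and 1 (myoepithelial). In each of these classes but B and plasma, whose share is not reported here, a larger share of all genes reached that level, as given above. Endothelial nuclei had 2 with DESeq2 and with RLE size factors and 1 without the gland term, and without a filter T and NK nuclei had 10 (beside 18.7%), macrophages 3 (15.7%), dividing nuclei 1 and myoepithelial nuclei 1. In endothelial nuclei DESeq2 called a larger share of all genes than of the members higher, as given above. Leaving out a gland gave 6 to 21 (B and plasma), 2 to 16 (adipocyte), 2 to 9 (mural), 0 to 1 (T and NK, endothelial), and 0 in each case in the interaction, which had 9 without both L20 glands. With all glands 22.6%, 12.2% and 17% of all genes were called lower in B and plasma, adipocyte and mural nuclei. With the 3 other classes of a gland as separate sums, which are not independent samples, the interaction had 0 with all glands and 30 without those of L20, beside 2.23% of all genes. The extremes were without L0 replicate 1 (21), PI7 replicate 2 (6), L20 replicate 2 or PI7 replicate 1 (2, adipocyte and mural) and L20 replicate 1 (9). In adipocyte nuclei without PI7 replicate 1, only 1 of the called members was lower, as given above.

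The mean share over nuclei was 0.258% at L0 and 0.404% at PI2, and among nuclei without mitochondrial UMIs 0.166% at L0, 0.337% at PI2 and 0.397% at PI7. With the further ribosomal genes it was 0.269% and 0.462% at L0 and PI2. Without mitochondrial UMIs the sections of G90 and PI2 had 16.6% and 17.8% and milk of L0 and L20 3.85% and 4.63%. Without casein and whey UMIs these were 18.6%, 18.4%, 5.01% and 4.95%, so the order of the stages turned in both assays, and stricter filters gave 4.12% and 5.40% in milk. With the median gene at a ratio of 1, 2 of 47 members were over 2-fold higher in the PI2 section, beside 14.8% of all genes. In that setting 0 members were over 2-fold lower, beside 13.2% of all genes.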
